A study of Mus musculus with 12 samples.

Results

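The genes of the proteasome were followed through a comparison of 2 ways of chemically converting labelled RNA in NIH-3T3 cells, an established wild-type line of mouse embryonic fibroblasts. The genes were taken by symbol, as every gene of the deposited table named Psma to Psmg with a number and nothing after it. This gave 45 of 15217 genes, and all 45 passed the filter on low counts that left 11080 genes for testing. Psmb8, Psma8 and Psmb11 were not analysed here. The label was 4-thiouridine (4sU), a uridine analogue that cells build into new RNA, at 0, 200 or 800 µM, with a labelling time of 2 h. Iodoacetamide then altered the incorporated 4sU so that it was read as C in sequencing (SLAM-seq), which separates RNA made during labelling from older RNA. The alkylation took place either inside methanol-fixed cells or, after RNA isolation, in tubes. The labels' protocols give fixed cells a hotter and shorter reaction, so fixation, temperature and time cannot be told apart. Each of the 6 groups (fixed cells at 0, 200 and 800 µM, tubes at 0, 200 and 800 µM) held 2 libraries, A and B. Whether A and B came from separate cultures is not stated, so the p-values rest on a spread between libraries that may be technical.

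The proteasome degrades proteins tagged with ubiquitin. Its 20S core is a barrel of outer rings of alpha subunits and inner rings of beta subunits, and some of the beta subunits carry the proteolytic sites. The 19S regulatory particle caps the barrel; its base of ATPases unfolds the substrate, and its lid removes the ubiquitin. Dedicated chaperones put the particle together, and activators and an inhibitor bind the ends of the core. Subunit genes are known to be transcribed together under the transcription factor NRF1, encoded by Nfe2l1, which binds antioxidant response elements in their promoters. In fibroblasts the constitutive catalytic subunits predominate, and interferon induces a set of immunoproteasome subunits that replace them.

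The 2 procedures gave different levels for many of the proteasome genes. In the fixed-cell libraries the 45 genes together took 0.987% to 1.06% of all counts, and in the tube libraries they took 0.834% to 0.872%, with no overlap between the 6 libraries of each procedure. Without 4sU, 26 of the 45 genes were higher and 1 was lower in fixed cells than in tubes (edgeR quasi-likelihood test, Benjamini-Hochberg adjusted p below 0.05 over all genes tested), 60% of the genes, against 31.5% of all genes tested. The count depended on the scaling of the libraries: set on the tertile of genes with the lowest newly made share, 15 were higher and 5 lower, 44.4% against 39.5% of all genes, and 16 of the 27 calls held under every alternative tried. For 4sU against no 4sU, 0 to 3 of the 45 passed the same test at each dose and procedure. That was 0% to 6.67% of the members, against 0.912% to 4.62% of all genes. The newly made share of their RNA was mostly lower in fixed cells than in tubes, but the test on the ratio called 0 genes of the whole table.

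The promoters of 4 members are printed because they are named in the results below. Psma2, Psmb3 and Psmc2 were the members called higher in tubes at 200 µM 4sU than without 4sU. At 800 µM in tubes 0 members were called. With scaling on the tertile of genes with the lowest newly made share, only Psmb3 was called higher at 200 µM. Psmb5 encodes a catalytic subunit with an NRF1-type element close to its start. Each is the 250 bases before the transcription start, from RefSeq on GRCm38.p6, written 5′ to 3′ on the strand of the gene. Capitals mark TGACNNNGC, the core of the antioxidant response element, and CCAAT, the box bound by NF-Y, both searched on both strands; no 2 marked words overlapped in these sequences.
Psma2, chr13:14612992-14613241, plus strand: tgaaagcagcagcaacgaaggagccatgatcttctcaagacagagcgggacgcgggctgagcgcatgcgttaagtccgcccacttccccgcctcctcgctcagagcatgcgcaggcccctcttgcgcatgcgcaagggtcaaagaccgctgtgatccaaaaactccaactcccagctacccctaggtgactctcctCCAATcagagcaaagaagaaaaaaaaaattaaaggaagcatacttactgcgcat
Psmb3, chr11:97703184-97703433, plus strand: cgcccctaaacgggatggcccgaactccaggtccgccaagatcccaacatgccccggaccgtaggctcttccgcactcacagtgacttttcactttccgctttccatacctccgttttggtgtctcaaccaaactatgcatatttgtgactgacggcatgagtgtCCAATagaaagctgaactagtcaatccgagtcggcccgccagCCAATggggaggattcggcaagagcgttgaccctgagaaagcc
Psmc2, chr5:21785025-21785274, plus strand: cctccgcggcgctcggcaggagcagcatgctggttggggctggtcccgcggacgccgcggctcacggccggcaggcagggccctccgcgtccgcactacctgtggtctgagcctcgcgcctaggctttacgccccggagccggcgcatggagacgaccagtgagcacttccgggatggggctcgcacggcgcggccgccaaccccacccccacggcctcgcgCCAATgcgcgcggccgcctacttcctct
Psmb5, chr14:54617996-54618245, minus strand: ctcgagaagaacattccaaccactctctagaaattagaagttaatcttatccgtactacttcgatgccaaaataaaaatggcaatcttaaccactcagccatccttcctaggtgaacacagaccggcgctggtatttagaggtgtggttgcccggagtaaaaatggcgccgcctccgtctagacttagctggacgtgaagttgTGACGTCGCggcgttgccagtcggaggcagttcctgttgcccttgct
The element in Psmb5 began 47 bases before the start. The CCAAT boxes began 54 bases before the start in Psma2, 28 in Psmc2, and 85 and 43 in Psmb3. The 38 members with a usable RefSeq promoter had 41 promoters. Of these, 5 held TGACNNNGC within the same 250 bases (12.2%), against 10.2% of 32851 promoters of the same length. These were Psmb5, Psmb6 at 9 bases and Psmd9 at 31 bases on the strand of the gene, and Psmc6 at 227 and Psmd12 at 247 bases on the other strand. CCAAT was found in 13 of the 41 member promoters (31.7%), against 33.8% of all promoters, and these belonged to 13 members. Psmc2 has a further promoter, which held no CCAAT. Neither share stood far from that of all promoters.

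The members lay on 16 chromosomes, with at most 8 on one, so they are not a cluster of neighbours. GENCODE M21 (GRCm38) places an exon of another gene over an exon of 3 members on the same strand (Psmb5 with Mir686, Psmd1 with Gm21972, Psmg3 with Gm26938) and over 10 members on the other strand, among them Psma5 with 1700010K24Rik, Psmd13 with Sirt3 and Psmb9 with Tap1. Whether counting used the strand is not stated in the sources used here, so for these genes reads of the partner cannot be told apart. Psme2 has a near-identical copy, Psme2b, and the split of reads between them is uncertain. The catalytic genes Psmb5, Psmb6 and Psmb7 have 1, 2 and 1 named pseudogenes in GENCODE M21. Whether reads were shared with those was not examined.

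Library totals ran between 3629634 and 7762635 counts. All 9 fibroblast markers were present, with a summed level of 18820.5 to 24273 CPM (counts scaled to library size by the TMM method) in fixed cells and 17230.3 to 20370.7 CPM in tubes, while the markers of epithelial, leukocyte, endothelial, neural and muscle cells summed to at most 11.1 CPM for any of these types. Library A of fixed cells at 800 µM stood apart: the chi-square per degree of freedom between the counts of A and B was 22.8 in that group and 3.23 to 7.08 in the other 5, and the median newly made share of its RNA over 5532 genes was 25.95%, against 32.1% in its partner. The main results that rest on it are also given without it. In such bulk libraries, fewer cells with a transcript and less of it per cell cannot be told apart.

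Levels of different subunits were compared as counts divided by the deposited gene length and scaled to the same total in each library (TPM); across all genes tested, counts hardly followed length (Spearman's rho −0.04), so this scale may overstate short genes. The members with the highest mean over all 12 libraries were Psmb1 at 893 TPM and Psmb4 at 799 TPM, both structural beta subunits, and Psmb6 at 532 TPM, the caspase-like catalytic subunit. The lowest 3 were Psmb9 at 0.78 TPM, an immunoproteasome subunit, Psme4 at 22.4 TPM, the nuclear activator PA200, and Psmf1 at 25.1 TPM, the inhibitor PI31. Psmb1 had 1025 ± 37.5 TPM in fixed cells and 774 ± 36.4 TPM in tubes without 4sU (SD, n = 2 each), and Psmb4 had 910.2 ± 55.5 TPM in fixed cells and 669.8 ± 54.8 TPM in tubes (SD, n = 2 each). The order differed between procedures: in tubes without 4sU Psmd7, a lid gene, averaged 785 TPM, above Psmb1, and Psma7 lay above Psmb6 in both procedures without 4sU. The order was not tested.

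**Figure D1:**
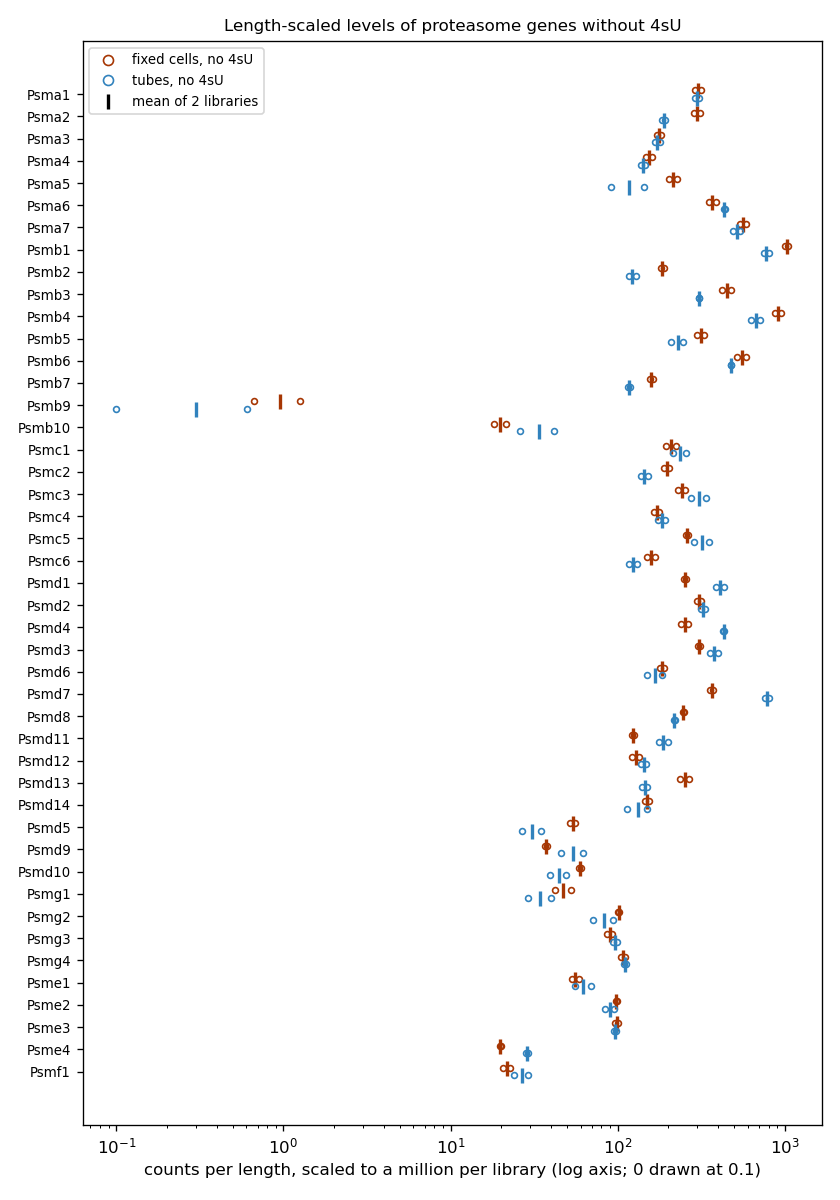
Length-scaled counts (TPM, log axis) of the 45 proteasome genes in the 2 libraries of fixed cells (brown) and of tubes (blue) without 4sU, with the mean as a bar. Psmb9 lies near or below 1 TPM, and Psmb1 and Psmb4 are the highest core genes in both procedures.

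The 20S core genes spanned 6.66-fold in TPM in fixed cells, Psma4 being the lowest and Psmb1 the highest, and 6.59-fold in tubes, where Psmb7 was the lowest. The 17 genes of the 19S particle spanned 2.94-fold in fixed cells and 6.36-fold in tubes, Psmd7 being the highest in both. Psmd7, the lid subunit that pairs with the deubiquitinase, had 365 ± 12.7 TPM in fixed cells and 785 ± 32.6 TPM in tubes without 4sU (SD, n = 2 each). The wider span in tubes came with that gene. Psmb9 replaces Psmb6 in the immunoproteasome and had 0 to 14 counts per library, fewer than 10 counts in 6 of the 12, so its differences could not be read. Psmb10, which replaces Psmb7, had 26.1 TPM on average, against 138 TPM for Psmb7 and 532 TPM for Psmb6.

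Most of the 20S core was higher in fixed cells than in tubes without 4sU. Of its 14 genes, 13 were higher and 0 lower, against 31.5% of all genes called in either direction. Their median log2 fold was 0.87, against −0.01 over all genes tested. With library scaling set on the tertile of genes with the lowest newly made share, 9 were higher and 0 lower (median 0.52). Under that scaling 6.82% of all genes were higher and 39.5% were called in either direction. The catalytic trio rose together. Psmb5 (GRCm38 chr14:54614119-54618022, minus strand), the chymotrypsin-like subunit, had 168 and 149.9 CPM in fixed cells, against 75.8 and 94.7 CPM in tubes, a log2 fold of 0.89 (SE 0.16, adjusted p = 0.000332). Psmb6 had 295 and 327 CPM in fixed cells, against 192 and 202 CPM in tubes (log2 fold 0.66, SE 0.12, adjusted p = 0.000318). Psmb7, the trypsin-like subunit, had 262 and 266 CPM in fixed cells, against 141 and 145 CPM in tubes (log2 fold 0.88, SE 0.16, adjusted p = 0.000291). In none of the 3 did the groups overlap, as is likely for genes called on the same libraries. All 4 structural beta genes were higher as well, by log2 folds of 0.85 for Psmb1 to 1.04 for Psmb2.

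Among the alpha subunits, which form the gate of the core, 6 of 7 were higher; Psma1, Psma3, Psma4 and Psma7 lost their call when 1 library was left out and also under the other scaling (log2 folds there of 0.12 to 0.22), whereas Psma2 and Psma5 did not. Psma5 showed the largest log2 fold of the members called. The gene lies at chr3:108256926-108279974 on the plus strand. It had 147 and 161 CPM in fixed cells, against 74.2 and 49.9 CPM in tubes (log2 fold 1.32, SE 0.16, adjusted p = 5.88e-06). Psma2 had 489 and 519 CPM in fixed cells, against 224 and 245 CPM in tubes (log2 fold 1.10, SE 0.13, adjusted p = 4.32e-06). In both genes the lowest fixed library lay well above the highest tube library, as is likely for genes called on the same libraries. Psma1, Psma3, Psma4 and Psma7 had log2 folds of 0.46 to 0.56. Psma6 did not pass (log2 fold 0.21, SE 0.13, adjusted p = 0.252).

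**Figure D2:**
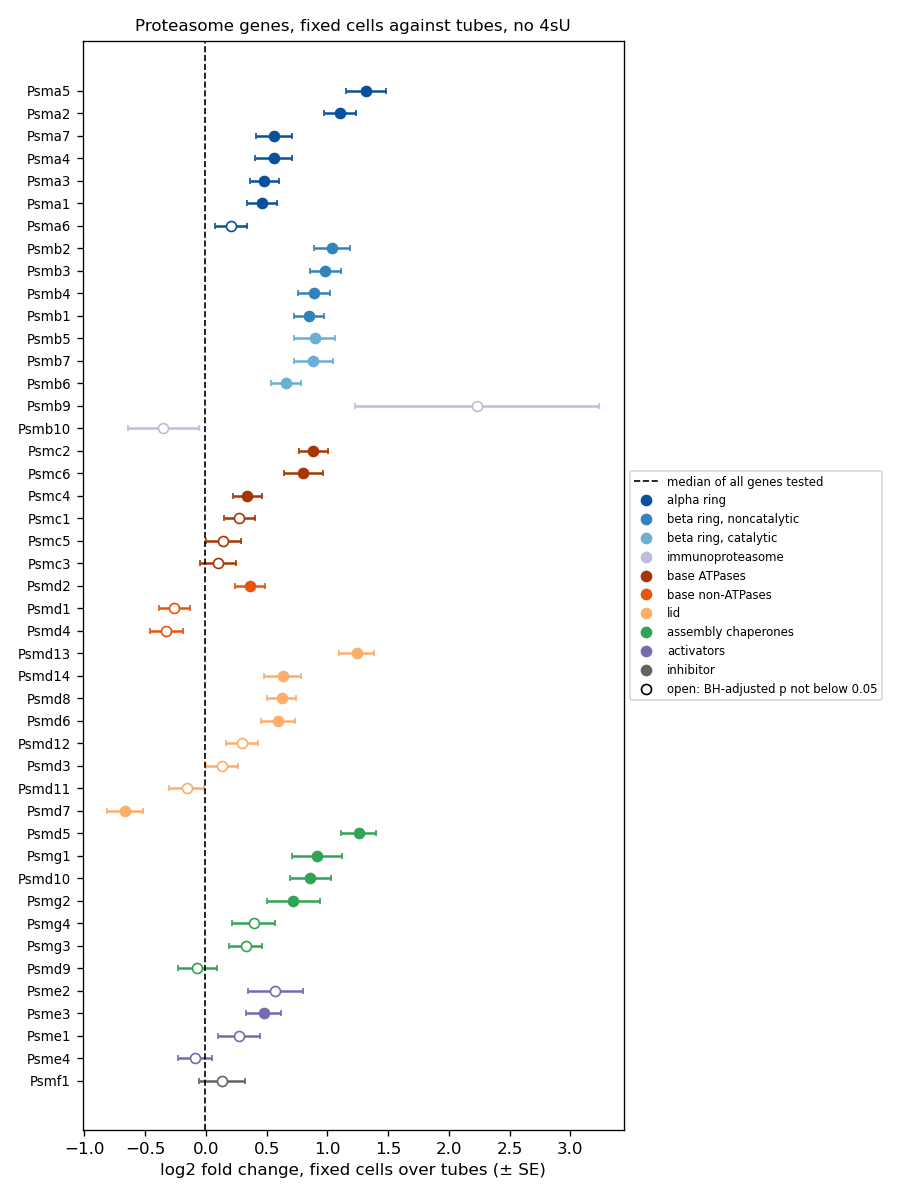
Log2 fold of fixed cells over tubes without 4sU for each of the 45 proteasome genes, with its standard error, grouped and coloured by role; filled points passed the test, open ones did not, and the dashed line is the median of all genes tested (−0.01). All 14 core genes lie right of the line, and the regulatory particle spreads from Psmd7 at −0.66 to Psmd13 at 1.24; scaling on genes of low newly made share shifts all genes by −0.34, which takes Psma6 below 0.

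The 19S particle was less uniform. Of its 17 genes, 8 were higher and 1 was lower, against 31.5% of all genes called, with a median log2 fold of 0.29. Under the scaling on genes of low newly made share 3 were higher and 4 lower, against 39.5% of all genes called. The median there was −0.05. The difference between core and regulatory particle was not tested. Among the 6 base ATPases, which drive substrates into the core, Psmc2, Psmc6 and Psmc4 were higher. Psmc2 had 411 and 381 CPM in fixed cells, against 218 and 210.5 CPM in tubes (log2 fold 0.88, SE 0.12, adjusted p = 1.41e-05). Psmc6 had a log2 fold of 0.80 (SE 0.16, adjusted p = 0.000586) and Psmc4 one of 0.34 (SE 0.12, adjusted p = 0.0363), a call lost when 1 library was left out and under the other scaling (log2 fold −0.0031). Psmc1, Psmc3 and Psmc5 did not pass at log2 folds of 0.10 to 0.28. Of the non-ATPase base, the ubiquitin-binding scaffold Psmd2 was higher (log2 fold 0.36, SE 0.12, adjusted p = 0.0309), a call also lost when 1 library was left out and under the other scaling (log2 fold 0.02). The ubiquitin receptor Psmd4 had 298 and 324 CPM in fixed cells, against 379 and 402 CPM in tubes (log2 fold −0.33, SE 0.14), and the scaffold Psmd1 had a log2 fold of −0.26; neither passed, with adjusted p = 0.0767 and 0.131.

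In the lid, genes differed in both directions. Psmd13 (chr7:140881968-140898643, plus strand) had 314 and 269.6 CPM in fixed cells, against 116 and 130.5 CPM in tubes (log2 fold 1.24, SE 0.15, adjusted p = 3.75e-06). Psmd14, the deubiquitinase that cleaves the ubiquitin chain from the substrate, had 132 and 136 CPM in fixed cells, against 96.5 and 77.4 CPM in tubes (log2 fold 0.63, SE 0.15, adjusted p = 0.0033), a call lost when 1 library was left out and under the other scaling (log2 fold 0.29). Psmd6 and Psmd8 were higher by log2 folds of 0.59 and 0.62, and did not pass under the other scaling at 0.25 and 0.28. Psmd7 (chr8:107580381-107588464, minus strand) ran the other way, with 330.5 and 341 CPM in fixed cells, against 501 and 561 CPM in tubes (log2 fold −0.66, SE 0.15, adjusted p = 0.00167). It was the lone member called lower. Psmd3, Psmd11 and Psmd12 did not pass, with log2 folds of −0.16 to 0.29.

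Of the 7 assembly chaperones, 4 were higher, against 31.5% of all genes called, or 3 under that other scaling, against 39.5%. Psmd5 (chr2:34849734-34874968, minus strand), a chaperone of the ATPase ring, had 134 and 141 CPM in fixed cells, against 63.5 and 51.7 CPM in tubes (log2 fold 1.26, SE 0.15, adjusted p = 2.86e-06). Psmd10, known as gankyrin, had a log2 fold of 0.86 (SE 0.17, adjusted p = 0.000536). Psmg1 and Psmg2, which pair to start the alpha ring, were higher by 0.91 (SE 0.21, adjusted p = 0.00206) and 0.72 (SE 0.22, adjusted p = 0.0172), the Psmg2 call being lost when 1 library was left out and under the other scaling. Psmg3 and Psmg4, the other pair of alpha ring chaperones, and Psmd9 did not pass, with log2 folds of 0.33, 0.39 and −0.07.

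Among the activators, Psme3, the nuclear PA28 gamma, was higher, with 157 and 149 CPM in fixed cells, against 109 and 112 CPM in tubes (log2 fold 0.47, SE 0.14, adjusted p = 0.0141); the call was lost when 1 library was left out and under the other scaling (log2 fold 0.13). Psme1 and Psme2, whose products form the interferon-inducible PA28, had log2 folds of 0.27 (SE 0.17, adjusted p = 0.235) and 0.57 (SE 0.23, adjusted p = 0.0654), and Psme4 one of −0.09 (SE 0.14, adjusted p = 0.669). The inhibitor Psmf1 had a log2 fold of 0.14 (SE 0.19, adjusted p = 0.629). The immunoproteasome gene Psmb10 had 16.5 and 13.8 CPM in fixed cells, against 14.2 and 24.0 CPM in tubes (log2 fold −0.35, SE 0.29, adjusted p = 0.392). Its groups overlapped.

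The same direction was seen in the labelled libraries, in comparisons added after the data had been seen. At 200 µM, 25 members were higher and 1 lower in fixed cells than in tubes, against 32.5% of all genes called, with a median log2 fold of 0.50; under the other scaling 12 were higher and 3 lower (33.3%, against 38.5% of all genes), with a median of 0.24. The lower call, Psmd7, was lost without tube library A or fixed library B at 200 µM. At 800 µM, 30 were higher and 1 lower, against 35% of all genes called, with a median of 0.57; without library A of the fixed cells 25 were higher and 1 lower (median 0.49), and under the other scaling 13 were higher and 5 lower (40%, against 46.3% of all genes; median 0.21). In all 3 comparisons 22 members were higher (48.9%, against 9.18% of all genes), and Psmd7 was lower (2.22%, against 9.1% of all genes). Under the other scaling 8 members were higher in all 3 (17.8%, against 3.38% of all genes). Psmd1 and Psmd7 were lower in all 3 (4.44%, against 21.4% of all genes). Across all 12 libraries, 28 of the 45 members (62.2%) had all 6 fixed-cell libraries above all 6 tube libraries, against 13.9% of all genes. Psmd7 was the member with all 6 below (2.22%, against 13.4% of all genes). Under the other scaling 15 members had all 6 above (33.3%, against 5.96% of all genes). Psmd1, Psmd4, Psmd7 and Psme4 had all 6 below (4 of the 45 members, against 26.9% of all genes).

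**Figure D3:**
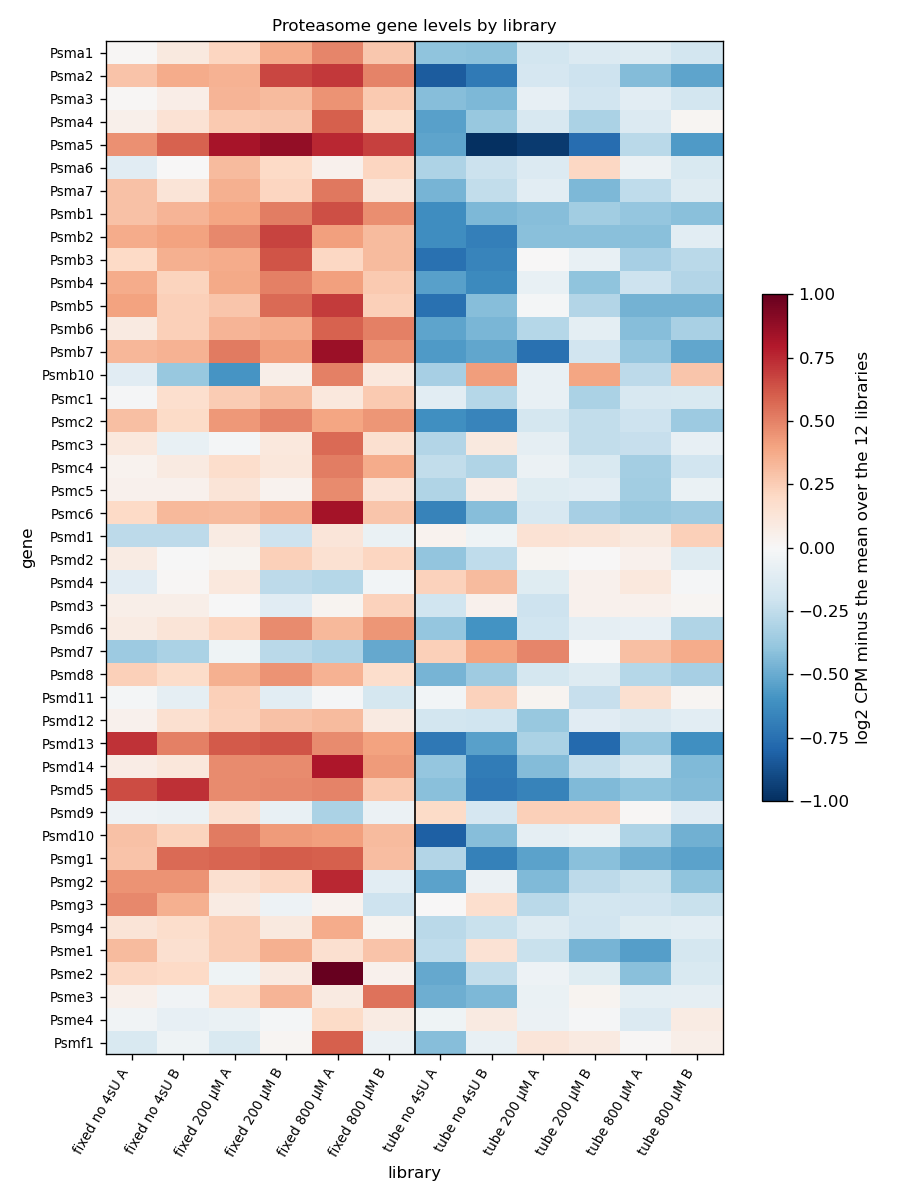
Log2 CPM of 44 proteasome genes (Psmb9 left out for its low counts) in each of the 12 libraries, minus the mean of the gene over the libraries, with the 6 fixed-cell libraries left of the 6 tube libraries. Most genes are red left of the line and blue right of it, and Psmd7 is the reverse; scaling on genes of low newly made share gives a members' median of 0.21 in place of 0.56 without 4sU.

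Scaling bears on these counts. In the comparison without 4sU, scaling on genes of low newly made share moved the median of all genes by −0.34 on the log2 scale; 15 members were then higher (33.3%, against 6.82% of all genes) and 5 lower (Psmd1, Psmd4, Psmd7, Psmd11 and Psme4). In either direction these were 44.4% of the members and 39.5% of all genes. The share of higher calls among all genes was 17.3% in place of 51.3%, and the members' median was 0.21. The members' median lay 0.57 above the median of all genes. A change of scaling moves all genes by about the same amount, so this gap is the same under both scalings by construction. Of the 27 members called, 18 were called without each of the 4 libraries in turn, and 16 under every alternative tried.

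Other gene families moved in the same direction. Of 83 cytosolic ribosomal protein genes, 59 were higher and 0 lower in fixed cells (median log2 fold 0.87), against 31.5% of all genes called. Of 78 mitochondrial ribosomal protein genes, 40 were higher and 2 lower (median 0.47). The difference was thus not particular to the proteasome. Under the other scaling these counts were 44 and 0 (median 0.52) and 19 and 6 (median 0.13). There 39.5% of all genes were called. Gene length and the newly made share moved with the procedure difference, and their part in it was not tested. Over the 11080 genes tested, the log2 fold of fixed cells over tubes correlated with gene length at a Spearman's rho of −0.42, and over 5532 genes with the mean ratio at −0.36; genes of one library set share depth and base composition, so these are descriptions. Among the members rho was −0.23 with length (45 genes) and −0.34 with the ratio (42 genes). The members had a median length of 1591 bases, against 3385 for all genes tested. Within the shortest of 5 equal bins of genes, at most 1957 bases, the 26 members had a median log2 fold of 0.58 and all 2217 genes one of 0.40. In the bin with the lowest ratio, at most 18.8%, the 14 members had a median of 0.75 and all 1107 genes one of 0.37. In bin 2 by ratio these were 0.39 (15 members) and 0.21, and in bin 3 they were 0.11 (10 members) and 0.04. Bin 4 held 3 members, with 0.47 against −0.07.

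**Figure D4:**
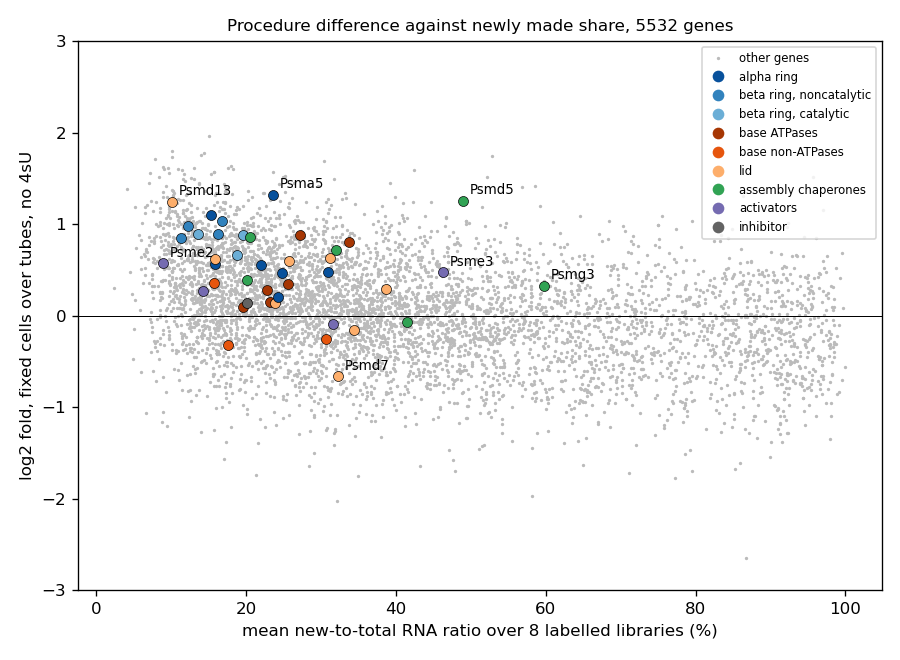
Log2 fold of fixed cells over tubes without 4sU against the mean new-to-total ratio over the 8 labelled libraries, for 5532 genes (grey) and the 42 proteasome genes among them (coloured by role). Members gather at low ratios and above 0, with Psmd7 below, and Psmd5, Psme3 and Psmg3 at higher ratios.

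Few of these transcripts were called for 4sU. In tubes at 200 µM, 3 members rose against no 4sU and 0 fell, 6.67% of the members against 4.62% of all genes; under the other scaling Psmb3 rose, and Psmd4 and Psmg3 fell, again 6.67% of the members, against 6.02% of all genes. Psmb3, a structural beta subunit, had 325.5 and 308 CPM at 200 µM, against 193 and 205 CPM without 4sU (log2 fold 0.67, SE 0.13, adjusted p = 0.00641). Psma2 had 356 and 347 CPM at 200 µM, against 224 and 245 CPM without 4sU (log2 fold 0.58, SE 0.13, adjusted p = 0.0192). Psmc2 had 295 and 280.4 CPM at 200 µM, against 218 and 210.5 CPM without 4sU (log2 fold 0.42, SE 0.12, adjusted p = 0.0453). The groups did not overlap in any of the 3, as is likely for genes called on the same libraries. Each of the 3 had a CCAAT box in the promoter printed above, and 10 other members had one too. Without 1 tube library at a time, 0 or 1 of the 45 members was called: 0 without A or without B of the unlabelled tubes, and 1 without A or without B at 200 µM, against 0.361% to 2.34% of all genes.

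At 800 µM in tubes, edgeR called 0 members, against 2.26% of all genes, and DESeq2 called 0. At an unadjusted p under 0.05 were 12 of the 45 members, against 1939 of all 11080 genes. The smallest p-values were those of Psmb3 (log2 fold 0.40, SE 0.13, adjusted p = 0.097), Psmc2 (0.35, SE 0.12, adjusted p = 0.12) and Psma4 (0.40, SE 0.15, adjusted p = 0.156). In fixed cells at 200 µM, edgeR called 0 members, against 0.912% of all genes, and DESeq2 called 0. At an unadjusted p under 0.05 were 5 of the 45 members, against 1407 of all 11080 genes. There the smallest p-values were those of Psmg3 (log2 fold −0.40, SE 0.13, adjusted p = 0.197), Psmd14 (0.38, SE 0.15, adjusted p = 0.28) and Psma3 (0.29, SE 0.12, adjusted p = 0.308).

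In fixed cells at 800 µM, 1 member fell and 0 rose, 2.22% of the members against 3.01% of all genes; under the other scaling Psmd5 and Psmg3 fell, 4.44% against 6.97% of all genes. Psmg3 (chr5:139823592-139826885, minus strand) had 95.9 and 81.0 CPM at 800 µM, against 130.4 and 119.6 CPM without 4sU (log2 fold −0.50, SE 0.14, adjusted p = 0.0472). This chaperone of the alpha ring was also the member with the highest newly made share. Psmd14 came next, with 220.5 and 169 CPM at 800 µM, against 132 and 136 CPM without 4sU (log2 fold 0.53, SE 0.15, adjusted p = 0.0527). DESeq2 called 5 of the 45 members there, namely Psmg3 lower and Psmd14, Psmc4, Psmb6 and Psma3 higher. Over all genes it called 547 of the 8324 to which it gave an adjusted p (6.57%). The edgeR calls changed with the library left out, in fits that leave 1 library in a group. The members' median log2 fold was 0.14 without library A of this group and 0.22 without library B. Without A or B of the unlabelled fixed cells it was 0.19 and 0.21, and the call of Psmg3 was lost.

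The members' median log2 fold was 0.17 at 200 µM and 0.13 at 800 µM in tubes, against 0.03 at each dose over all genes. In fixed cells it was 0.14 at 200 µM and 0.17 at 800 µM, against −0.0023 and −0.00094 over all genes. With scaling on genes of low newly made share, the members' medians were −0.02 and −0.04 in tubes. In fixed cells they were 0.03 and −0.01, so the sign of 3 of the 4 flipped. Relative to all genes the members lay 0.10 to 0.17 higher. That gap is the same under both scalings by construction, because a change of scaling moves all genes by about the same amount. Under TMM scaling other families lay above all genes as well. For cytosolic ribosomal protein genes the medians at 200 and 800 µM were 0.37 and 0.21 in tubes, and 0.17 and 0.39 in fixed cells. For mitochondrial ones they were 0.16 and 0.07 in tubes, and 0.08 and 0.21 in fixed cells. The rise was thus not particular to the proteasome. The procedures share no samples in these contrasts, but both doses of a procedure share its unlabelled libraries.

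No difference in the 4sU effect between fixed cells and tubes was called by edgeR at either dose for any of 11080 genes (0% each). At an unadjusted p under 0.05 were 2 members at 200 µM and 3 at 800 µM, against 971 and 648 of all genes. DESeq2 called 11 genes at 200 µM and 0 at 800 µM, of which 0 were members. The smallest p-values at 200 µM were those of Psmb3 (difference in log2 fold −0.44, 95% interval −0.81 to −0.07, adjusted p = 0.484), Psma2 (−0.39, −0.78 to −0.01, adjusted p = 0.553) and Psma5 (0.39, −0.08 to 0.86, adjusted p = 0.651). At 800 µM they were those of Psmb3 (−0.42, −0.78 to −0.05), Psmd5 (−0.46, −0.88 to −0.04) and Psmc4 (0.36, 0.01 to 0.72), each with adjusted p = 0.834. Between 800 and 200 µM, edgeR called 0 of all genes in tubes and 0 in fixed cells (0% each), and DESeq2 called 0 members. At an unadjusted p under 0.05 were 3 members in each procedure, against 979 of all genes in tubes and 842 in fixed cells. The smallest p-values belonged to Psma5 in tubes (log2 fold 0.44, SE 0.16, adjusted p = 0.444), with Psma2 at −0.29 and Psmb3 at −0.27, and to Psme2 in fixed cells (0.57, SE 0.22, adjusted p = 0.587), with Psmc4 at 0.30 and Psmc3 at 0.33. Psme2 had 95.2 CPM in library A of fixed cells at 800 µM and 49.4 CPM in B.

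Newly made RNA was measured by the new-to-total ratio, the deposited estimate of the share of a gene's RNA that was made during labelling. The ratio was tested for genes with at least 100 counts in each of the 8 labelled libraries, which kept 42 of the 45 members and left out Psmb9, Psmb10 and Psmg1. The members' mean ratios had a median of 23.0%, against 35.3% for all 5532 genes, so proteasome transcripts as a group held less new RNA than the typical gene. The highest belonged to Psmg3 at 59.8%, Psmd5 at 48.9% and Psme3 at 46.3%. The lowest belonged to Psme2 at 8.86%, Psmd13 at 10.1% and Psmb1 at 11.3%. A low share was not particular to the proteasome. By library, the members' medians were 16.6% to 28.0%. Those of cytosolic ribosomal protein genes were 8.57% to 14.5%, and those of mitochondrial ones 20.95% to 33.9%.

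The ratio differed between the roles of the genes. The 4 structural beta genes had 11.3% to 16.8% and the 3 catalytic beta genes 13.6% to 19.5%, while the 7 alpha genes had 15.2% to 30.9%. The 6 base ATPases had 19.6% to 33.8%, the 8 lid genes 10.1% to 38.7%, and the 6 assembly chaperones measured 20.1% to 59.8%. By medians, the structural beta genes were the lowest of these roles at 14.2% and the chaperones the highest at 36.7%, with the 3 non-ATPase base genes at 17.6%. The groups are small, several of their ranges overlap, and the order was not tested.

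Psmg3, the member with the highest ratio, had 73.6% and 66.9% in fixed cells, against 57.3% and 57.6% in tubes at 200 µM, and 53.0% and 60.9% in fixed cells, against 57.1% and 51.8% in tubes at 800 µM. Its groups were apart at 200 µM and overlapped at 800 µM. Psmb1, among the lowest, had 12.1% and 8.27% in fixed cells, against 13.9% and 14.3% in tubes at 200 µM, and 7.14% and 10.5% in fixed cells, against 11.9% and 12.1% in tubes at 800 µM. Its fixed libraries lay below its tube libraries at both doses.

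Between procedures most members had a lower ratio in fixed cells. At 200 µM both fixed libraries lay below both tube libraries for 29 of 42 members (69.0%), against 42.9% of all genes, and at 800 µM for 27 of 42 (64.3%), against 48.6% of all genes; library B of the fixed cells alone lay below both tube libraries for 28 (66.7%, against 54.1% of all genes). The reverse order was found at 200 µM for Psmg3 and Psmd7 and at 800 µM for Psmd7 and Psmc5. Among cytosolic ribosomal protein genes both fixed libraries lay below both tube libraries for 92.8% at each dose. Among mitochondrial ones this was 44.1% at 200 µM and 54.4% at 800 µM. limma called 0 of 5532 genes in either comparison (0% each), with 11 members at an unadjusted p under 0.05 at 200 µM and 9 at 800 µM, against 1055 and 1139 of all genes; no other tool was run on the ratio. The members' median difference on the logit scale was −0.29 at 200 µM and −0.36 at 800 µM, against −0.19 and −0.31 over all genes. Without library A of fixed cells at 800 µM, whose ratios were low throughout, the median at 800 µM was −0.17. With each library of this comparison left out in turn, the median ran from −0.50 to −0.17. Members were called without library B of that group, but this leaves A alone and the share of all genes is not given here.

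**Figure D5:**
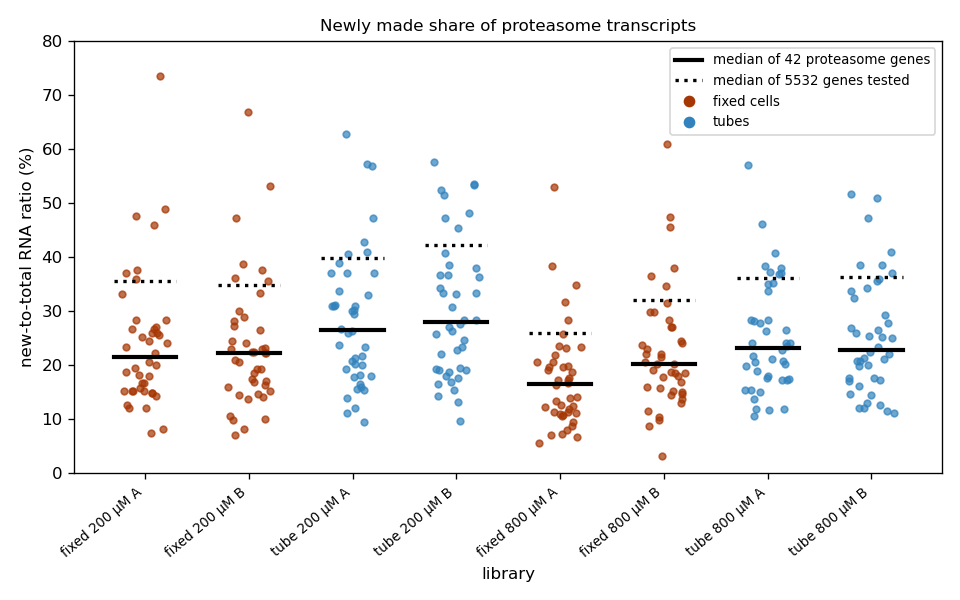
New-to-total ratio in percent of the 42 proteasome genes (points) in each of the 8 labelled libraries, fixed cells in brown left of tubes in blue at each dose, with the members' median (solid) and the median of 5532 genes (dotted). The members' median is 21.5% and 22.3% in fixed cells at 200 µM, against 26.6% and 28.0% in tubes, and 16.6% and 20.2% in fixed cells at 800 µM, against 23.2% and 22.9% in tubes.

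The smallest p-values in both procedure comparisons belonged to alpha subunit genes. Psma3 had 25.5% and 24.2% in fixed cells, against 38.9% and 40.8% in tubes at 200 µM (logit difference −0.70, SE 0.18, adjusted p = 0.129), and 19.2% and 24.6% in fixed cells, against 38.4% and 35.9% in tubes at 800 µM (−0.76, SE 0.18, adjusted p = 0.12). Psma1 had 18.7% and 19.3% in fixed cells, against 37.1% and 33.2% in tubes at 200 µM (−0.84, SE 0.20, adjusted p = 0.121), and 13.4% and 20.5% in fixed cells, against 28.3% and 27.9% in tubes at 800 µM (−0.67, SE 0.20, adjusted p = 0.147). Each gene was low in all 4 fixed libraries. Next came Psma4 at 200 µM (−0.59, SE 0.16, adjusted p = 0.14) and Psmd14 at 800 µM (−0.62, SE 0.20, adjusted p = 0.169). The deposited 0.05 to 0.95 posterior intervals of both fixed libraries lay wholly below those of both tube libraries for 7 members at 200 µM (16.7%, against 8.66% of all genes) and for 6 at 800 µM (14.3%, against 10.7%), Psma1, Psma3 and Psmd14 among them at both doses, and wholly above for 0. Those intervals cover counting within a library and not the spread between libraries: A and B of fixed cells at 800 µM had intervals apart from each other for 20 of the 42 members (47.6%, against 29.5% of all genes), and those of tubes at 800 µM for 3 (7.14%, against 12% of all genes).

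A higher dose did not raise the ratio. The members' median logit difference of 800 µM over 200 µM was −0.20 in tubes and −0.22 in fixed cells, against −0.20 and −0.32 over all genes; the fixed-cell value was −0.07 without library A at 800 µM and −0.36 without B. limma called 0 genes in each (0%), with 5 members in tubes and 2 in fixed cells at an unadjusted p under 0.05, against 461 and 923 of all genes. The smallest p-values were those of Psmd9 (−0.77, SE 0.26), Psmb3 (−0.43, SE 0.17) and Psmc5 (−0.42, SE 0.17) in tubes, each with adjusted p = 0.588, and of Psmg3 (−0.58, SE 0.23, adjusted p = 0.286), Psmc2 (−0.57, SE 0.23, adjusted p = 0.286) and Psmd9 (−0.58, SE 0.26, adjusted p = 0.304) in fixed cells. In fixed cells these genes were low in library A at 800 µM: Psmc2 had 14.1% there and 23.8% in B, against 28.4% and 28.9% at 200 µM.

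CPM multiplied by the ratio gives the new RNA of a gene, and the remainder its older RNA. The members' median log2 difference of fixed cells over tubes was 0.62 at 200 µM and 0.64 at 800 µM for older RNA, and 0.15 at each dose for new RNA; under the other scaling these were 0.36 and 0.28 for older RNA and −0.11 and −0.21 for new RNA, so the direction of the new RNA difference turned. Over all genes the older RNA differed by 0.11 and 0.24 and the new RNA by −0.18 and −0.23. With library B alone for fixed cells at 800 µM, the members' medians were 0.54 for older and 0.16 for new RNA. Psma1 had 202 CPM of older RNA in fixed cells, against 118 CPM in tubes, and 47.5 CPM of new RNA in fixed cells, against 63.9 CPM in tubes at 200 µM. Psma5 was higher in both, with 149 CPM of older RNA in fixed cells, against 41.5 CPM in tubes, and 44.1 CPM of new RNA in fixed cells, against 17.5 CPM in tubes. Psmd7 was lower in both, with 239 CPM of older RNA in fixed cells, against 339.6 CPM in tubes, and 143 CPM of new RNA in fixed cells, against 169.9 CPM in tubes. These products are means of 2 libraries and were not tested.

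Genes that work beside the proteasome were counted from lists chosen with earlier results of these data known. All values of the partner, NRF and antigen processing lists are under TMM scaling alone. The other scaling moved the median of all genes by −0.34 between fixed cells and tubes without 4sU. Results of these lists under it are not given here, so their calls are not firmer than those of the members. Of 26 partner genes, 4 were higher and 1 lower in fixed cells without 4sU, against the 31.5% called among all genes, with a median log2 fold of 0.20. Sem1, the smallest subunit of the lid, which the symbol rule leaves out, had 290.1 and 319 CPM in fixed cells, against 146 and 130.4 CPM in tubes (log2 fold 1.14, SE 0.14, adjusted p = 4.02e-06). The ubiquitin gene Ubb was higher by 0.89 (SE 0.13, adjusted p = 2.21e-05), and the ubiquitin-activating enzyme gene Uba1 was lower by −0.50 (SE 0.13, adjusted p = 0.00557). The core maturation factor Pomp and the ubiquitin receptor gene Adrm1 did not pass, with log2 folds of 0.28 (SE 0.35) and −0.24 (SE 0.16).

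Nfe2l1 itself had 87.7 and 85.2 CPM in fixed cells, against 80.8 and 83.5 CPM in tubes without 4sU (log2 fold 0.07, SE 0.14, adjusted p = 0.725), and it passed in none of the comparisons. Its relative Nfe2l2, which encodes NRF2, had 111 and 114 CPM in fixed cells, against 80.2 and 83.5 CPM in tubes (log2 fold 0.46, SE 0.14, adjusted p = 0.0196). Whether this call holds under the other scaling is not given here. Of the 16 genes of the NRF list, 1 was higher and 4 were lower in fixed cells, near the 31.5% called among all genes; the 4 were Bach1, Mafg, Hmox1 and Gclc, and the median of the list was a log2 fold of −0.19. Under 4sU, 2 genes of this list rose and 1 fell at 200 µM in tubes, against 4.62% of all genes called. At 800 µM in tubes 2 rose and 0 fell, against 2.26%. In fixed cells 1 rose and 0 fell at 200 µM, against 0.912%. At 800 µM in fixed cells 1 rose and 1 fell, against 3.01%. Txnrd1, an NRF2 target encoding thioredoxin reductase, rose against no 4sU at each dose and in each procedure. In tubes its edgeR log2 folds were 0.67 (SE 0.16, adjusted p = 0.024) at 200 µM and 0.85 (SE 0.16, adjusted p = 0.00749) at 800 µM. In fixed cells they were 0.73 (SE 0.16, adjusted p = 0.0332) at 200 µM and 0.69 (SE 0.16, adjusted p = 0.0232) at 800 µM. The heme oxygenase gene Hmox1 rose in tubes at 200 µM, with 14.0 and 19.2 CPM, against 6.74 and 7.14 CPM without 4sU (log2 fold 1.26, SE 0.28, adjusted p = 0.0161).

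Of 15 antigen processing and interferon genes tested, 2 were higher and 3 lower in fixed cells without 4sU, also near the 31.5% of all genes, with a median log2 fold of −0.09. Irf1, an interferon-responsive transcription factor, and B2m, the light chain of class I molecules, were higher by 1.00 (SE 0.24, adjusted p = 0.00372) and 0.64 (SE 0.13, adjusted p = 0.00108). Tap1, the peptide transporter that shares its locus with Psmb9, the class I gene H2-K1 and the loading factor gene Tapbp were lower, by −1.34 (SE 0.44, adjusted p = 0.0241), −1.05 (SE 0.13, adjusted p = 5.71e-06) and −1.07 (SE 0.20, adjusted p = 0.000414). In fixed cells Irf1 fell with 4sU, with 17.8 and 25.5 CPM at 200 µM, against 46.2 and 56.9 CPM without 4sU (log2 fold −1.26, SE 0.24, adjusted p = 0.0156). Psmb9 and Psmb10 passed in none of the comparisons.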

How the data were processed

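The authors deposited expected counts (estimated counts, of which 16.2% to 22.0% in each library are fractional), per the file headers; these were rounded before testing. The new-to-total ratio of the 8 labelled libraries is a deposited fraction, given as a most probable value with its mean and quantiles, per the file headers, and percentages here are that value. The deposited alpha and beta scores entered no result. Cutadapt, Bowtie2 (2.3.0) and STAR (2.7.10b) are listed in the submitters' processing notes, with no role stated; the build, annotation and counting tool of the authors are not stated in the sources used here.

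Counts were tested with edgeR 4.0.16 (R 4.3.3): filterByExpr (minimum count 10, total 15), TMM, robust quasi-likelihood fit, 1 fit of 12 libraries without a block, Benjamini-Hochberg (BH) adjustment over 11080 genes at 0.05. Residual degrees of freedom were 6. Ratios were tested with limma 3.58.1 (trend, robust) on the logit of values clipped to 0.001 to 0.999. DESeq2 1.42.0 was an alternative, as were other scalings, filters, a replicate block and leaving out each library. Results without library A of fixed cells at 800 µM, and the other scaling beyond the planned comparisons, were added after seeing the data. Simulated data were used to test the code. Coordinates are GENCODE M21 on GRCm38, matched by gene ID for all 45 members. The members, gene lists and tests were chosen with earlier results of these data known. Members were named where they passed a test, were highest or lowest, had the smallest p where none passed, or were catalytic, regulatory or ubiquitin-handling subunits. Some single-gene results of the partner list are not reported here.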

Additional observations from a re-analysis of the deposited data

How the results depend on the processing

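In the fixed-cell comparison without 4sU, the 27 members called (26 higher, 1 lower) became 20 with scaling on genes of low newly made share, but as 15 higher and 5 lower, and 20 to 23 with 1 library left out; the median of 0.56 was 0.47 to 0.51 then, 0.50 in the 200 µM libraries (chosen after seeing the data) and 0.21 with that scaling. That scaling put Psmc4 at -0.0031 and the medians for 4sU at -0.036 (800 µM, tubes), -0.022 (200 µM, tubes), -0.013 (800 µM, fixed) and 0.027 (200 µM, fixed); the medians of the procedure difference in the 200 µM effect and of the dose step in tubes became 0.015 and 0.019. DESeq2 size factors and DESeq2 gave -0.0168 and -0.0179 for that procedure difference, against -0.07. The cause was not tested.

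The count at 800 µM in fixed cells (1 in the reported fit) was 2 with that scaling and without a low-count filter, 5 with DESeq2, and 0 without the robust option, an alternative chosen after seeing the data. With 1 library left out it was 0 to 11, the count at 200 µM in tubes 0 to 1, and the dose step in fixed cells 0 to 4; in the ratio, 0 to 10 members were called between procedures at 800 µM and 0 to 2 for the dose step in fixed cells. The medians then ranged over 0.083 to 0.21 (800 µM, tubes), 0.18 to 0.21 (200 µM, tubes), -0.027 to 0.085 (procedure difference at 800 µM), -0.10 to 0.021 (at 200 µM), and -0.044 to 0.011 (dose step, tubes), and on the logit scale over -0.50 to -0.17 (procedures, 800 µM), -0.26 to -0.10 (dose step, tubes) and -0.36 to -0.07 (dose step, fixed). A lone remaining library was assumed to vary like the other groups. The share of all genes called in the same fits is not given beside these counts. The counts therefore cannot tell a change in the members from one across all genes.

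With the replicate block, the count at 800 µM in fixed cells was 0, and no other count of members moved by over 1.5 times; A and B share only a letter across groups, with correlations of same-lettered deviations from the group means of -0.13 to 0.13, so no pairing was used.

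Limits: 2 libraries a group bound the precision, the ratio has no unlabelled background, and procedures differ in fixation, temperature and time together.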
